A study of Mus musculus with 6 samples.

Results

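P2ry12, Tmem119, Sall1, Fcrls, Sparc, Cx3cr1, Gpr34 and Olfml3 are genes commonly used to recognise microglia, the resident macrophages of the brain, in their resting or homeostatic state. These 8 genes were taken by symbol from the 32285 genes of the expression matrices, and all 8 had a row. Their unique molecular identifiers (UMIs, 1 per captured transcript) were summed per library and per class of cells, and levels are given as UMIs per 1000000 UMIs of that sum (CPM). The cells were CD45+ leukocytes sorted from tumours of a breast cancer line selected for brain metastasis. The line had been injected into the brain (BrM, 3 libraries) or into the mammary fat pad (MFP, 3 libraries) of female C57BL/6J mice aged 10 to 12 weeks. No untreated brain or tumour-free fat pad entered the comparison, and nothing in the labels states that libraries stem from different animals. The p-values below thus reflect how far libraries spread, which may be technical. CD11b was stained but was not part of the stated gate.

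Microglia settle in the brain before birth and renew themselves there, and signals of the brain, TGF-beta among them, hold them in the homeostatic state. Monocytes that enter a tumour from the blood become macrophages that resemble microglia in many genes, so a gene is useful as a microglial marker only where such macrophages lack it. Sall1 is a zinc finger transcription factor that maintains microglial identity. P2ry12 is a receptor for ADP that steers microglial processes to injured cells, Cx3cr1 is the receptor for fractalkine from neurons, and Gpr34 is a receptor for lysophosphatidylserine. Tmem119 and Fcrls are proteins of the cell surface. Sparc and Olfml3 are secreted glycoproteins, and Sparc is also made by endothelial cells, fibroblasts and many tumour cells.

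In the GENCODE annotation of GRCm38 all 8 are protein-coding genes. P2ry12 (chr3:59216272-59262871), Fcrls (chr3:87250758-87263738) and Olfml3 (chr3:103722222-103738001) lie on the minus strand of chromosome 3. Tmem119 (chr5:113793729-113800516), Sall1 (chr8:89027235-89044162), Cx3cr1 (chr9:119901616-120069879) and Sparc (chr11:55394500-55423183) are also on minus strands, and Gpr34 (chrX:13632089-13640858) is on the plus strand. P2ry12 lies inside Med12l and Gpr34 inside Cask, both on the opposite strand. The annotated span of Cx3cr1 also covers Gorasp1, Csrnp1 and Xirp1 on its own strand. The strand setting of the counting is not given in the sources used here, so reads of these overlapping genes may not have been told apart.

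Sequences upstream of gene starts came from RefSeq (GRCm38.p6), which had an entry for 6 of the 8 genes. Sall1 and Olfml3 are shown because the results below turn on their contrast: Sall1 had the fewest UMIs outside microglia, and Olfml3 was shared with macrophages and had the smallest adjusted p between the sites. Each line gives the 250 bases before a start, 5′ to 3′ along the gene. Capitals mark a match to the core motif of Ets factors, GGAAGT, the family of Spi1.
Olfml3 at chr3:103738002-103738251, minus strand: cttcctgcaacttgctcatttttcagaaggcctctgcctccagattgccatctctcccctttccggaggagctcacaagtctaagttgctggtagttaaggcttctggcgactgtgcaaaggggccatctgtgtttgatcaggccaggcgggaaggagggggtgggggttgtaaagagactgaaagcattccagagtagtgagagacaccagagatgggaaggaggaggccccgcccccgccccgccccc
Sall1, start 1, at chr8:89044163-89044412, minus strand: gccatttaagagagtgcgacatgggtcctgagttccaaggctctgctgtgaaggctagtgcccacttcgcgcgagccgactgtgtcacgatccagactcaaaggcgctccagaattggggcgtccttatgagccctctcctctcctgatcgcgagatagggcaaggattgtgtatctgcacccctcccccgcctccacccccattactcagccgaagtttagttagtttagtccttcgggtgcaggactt
Sall1, start 3, at chr8:89042863-89043112, minus strand: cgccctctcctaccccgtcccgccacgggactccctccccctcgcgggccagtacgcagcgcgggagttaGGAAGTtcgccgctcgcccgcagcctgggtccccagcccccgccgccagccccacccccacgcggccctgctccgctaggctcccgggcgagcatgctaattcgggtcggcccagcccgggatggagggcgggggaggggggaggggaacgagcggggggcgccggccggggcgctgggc
Start 3 of Sall1 lies within the gene, and none of the 3 windows held a base of an annotated exon. The GC content was 57.6% before Olfml3, 56.4% before start 1 of Sall1 and 78.4% before start 3, against a median of 52.4% over 32851 windows of the same length. The search covered both strands for GGAAGT (Ets), TGTGGT (Runx) and CTANNNNTAG (Mef2), which were found in 19.74%, 14.05% and 3.2% of all windows. The Olfml3 window and that of Sall1 start 1 held none of the 3 motifs, and that of Sall1 start 3 held 1 Ets match. The window of Sall1 start 2, not shown, held none either. The window of P2ry12 held 1 Ets match, that of Fcrls 1 Ets and 2 Runx matches, that of Cx3cr1 1 Runx and 1 Mef2 match, and that of Sparc none. Of the 250 bases, 250 lay in annotated exons for P2ry12 and for Cx3cr1, 136 for Fcrls and 238 for Sparc. These matches describe letters only.

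The libraries held 50692794 to 70944735 UMIs, and 43608 of 49518 barcodes were kept, at a median of 4914 to 7840 UMIs per cell. Any pair of libraries shared between 10 and 39 barcodes. BrM 1, MFP 1 and MFP 2 stood apart from the others. They were 96.1%, 97.0% and 98.7% lymphoid and held 261, 185 and 75 myeloid cells, whereas BrM 2, BrM 3 and MFP 3 were 55.1%, 50.7% and 66.7% myeloid. Cells sorted on 1 gate thus differed in makeup within each site, and values for myeloid cells rest mainly on BrM 2, BrM 3 and MFP 3, the last being the only MFP library with many macrophages.

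Classes were named from marker lists that held none of the 8 genes, and the 8 genes were also left out of the genes used for clustering. Microglia-like cells numbered 11, 481 and 378 in BrM 1, 2 and 3, or 0.149%, 6.73% and 4.97% of the kept cells (95% exact binomial intervals 0.0745 to 0.267%, 6.16 to 7.34% and 4.49 to 5.48%). MFP 1 held 1 such cell. MFP 2 and MFP 3 held 0, which allows a share of up to 0.0380% and 0.0487% (3 cells of the total, counting error only). The levels of 2 markers from the naming list, neither of them a member, describe the named cells. Crybb1, a crystallin typical of microglia, was at 107 and 128 CPM in microglia-like cells of BrM 2 and BrM 3, and at 0.454, 0.562 and 0.272 CPM in macrophage-like cells of BrM 2, BrM 3 and MFP 3. Sall3 was at 27.3 and 17.9 CPM against 0.124, 0.0936 and 0.0340 CPM. Since these markers helped to give the name, their levels are no separate check of it. The 10 leading genes of the 4 microglia-like clusters against all other clusters held 3 to 5 genes of the macrophage list, such as C1qa and Trem2, which microglia are known to express too, and 0 or 1 of their own naming markers.

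Sall1 and Sparc were nearly confined to microglia-like cells. P2ry12 and Gpr34 were roughly 10 to 20 times lower in tumour macrophages than in microglia but clearly present there, and Gpr34 was also present in T and NK cells. Fcrls and Olfml3 were found in macrophages at several times lower levels. The gap was smallest for Tmem119 and Cx3cr1, 2.04-fold to 3.13-fold in BrM 2 and BrM 3. In macrophages of MFP 3 these 2 genes stood at 51.1% and 34.3% of their mean microglial level. The comparison of the classes is a description with no test, since classes were made by clustering these cells. It rests on the macrophage-like cells of BrM 1, 2 and 3 (72, 2073 and 2053 cells) and of MFP 1, 2 and 3 (71, 32 and 2057 cells), and on the microglia-like cells of BrM 2 and BrM 3. Values of macrophages from BrM 1, MFP 1 and MFP 2 come from few UMIs, 608955, 531850 and 172663 in all, so that 1 UMI of MFP 2 is worth 5.79 CPM. Shares of a gene's UMIs are taken over the named classes and leave out cells of clusters without a name.

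**Figure D1:**
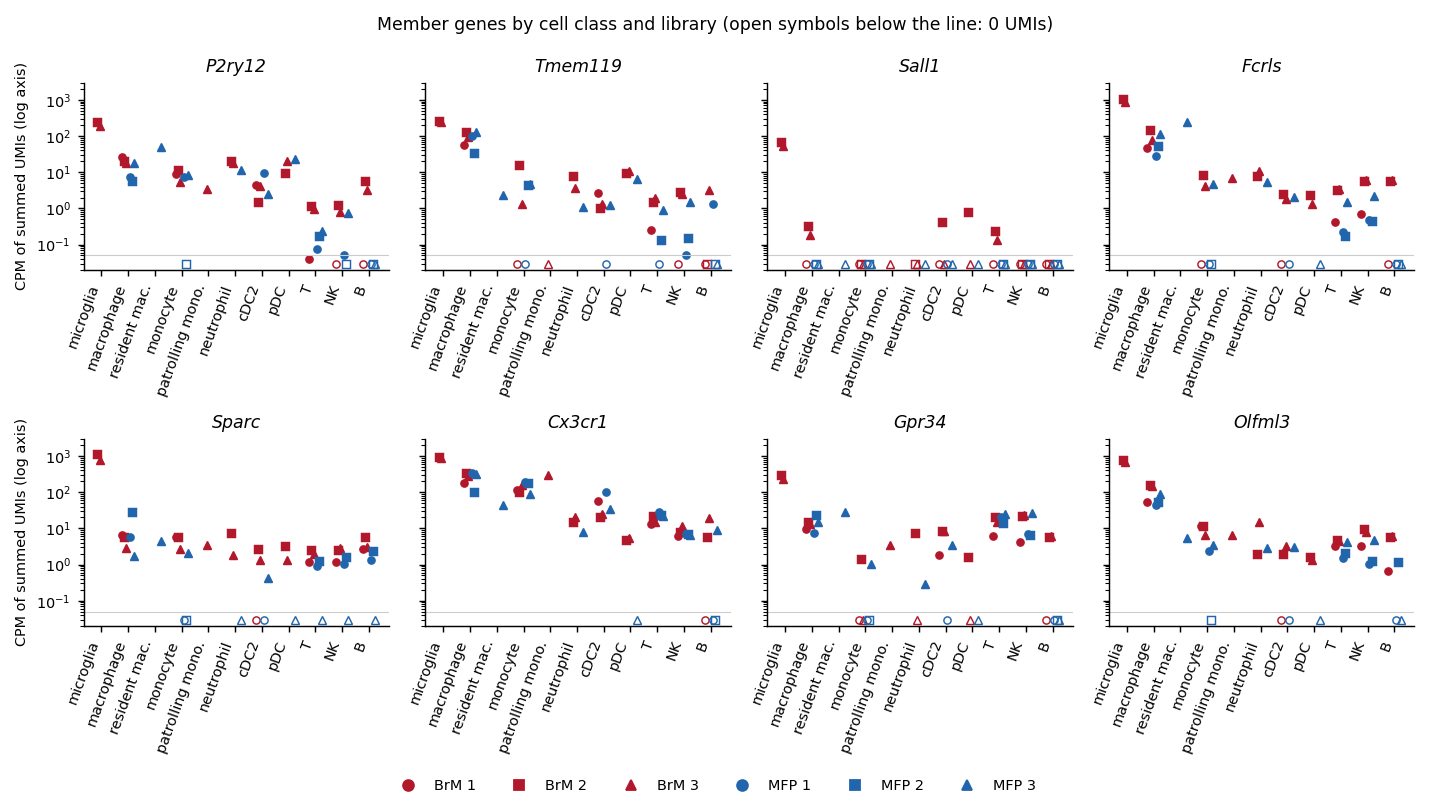
Level of each of the 8 genes (CPM of summed UMIs, log axis) by cell class, 1 point for each library with at least 20 cells of the class, BrM in red and MFP in blue; open symbols below the grey line mark sums with 0 UMIs. Sall1 and Sparc drop from microglia (70.1 and 1136 CPM in BrM 2) to under 1 CPM and to 1.73 to 29.0 CPM in macrophages. Tmem119 and Cx3cr1 drop less, from 257 and 927 CPM in microglia of BrM 2 to 34.7 to 128 and 98.5 to 338 CPM in macrophages.

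The transcription factor Sall1 was at 70.1 and 52.6 CPM in the microglia-like cells of BrM 2 and BrM 3. In macrophage-like cells it gave 8 UMIs in BrM 2 and 4 in BrM 3 (0.330 and 0.187 CPM), and 0 UMIs in BrM 1, MFP 1, MFP 2 and MFP 3. For MFP 3, a count of 0 allows up to 0.102 CPM. The 2 brain libraries with many microglia were therefore the only ones with Sall1 in macrophage-like sums. Over the named classes, 407 and 213 UMIs of Sall1 were counted in BrM 2 and BrM 3, of which 96.3% and 96.7% lay in microglia-like cells. Cells without a name held 13 and 11 more. No UMI of Sall1 was counted in the other 4 libraries. A UMI of Sall1 was found in 43.9% and 37.3% of the microglia-like cells of BrM 2 and BrM 3, at a median depth of 11088 and 10213 UMIs per cell. After every cell had been thinned to 2000 UMIs, which left 466 and 358 of these cells, the shares were 11.4% and 8.38%, and 0.05% or less in macrophage-like cells. Sall1 was thus seen in only a part of the microglia at these depths.

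Among the receptors, P2ry12 was at 249 and 192 CPM in microglia of BrM 2 and BrM 3. Macrophages held 26.3, 20.4 and 18.2 CPM in BrM 1, 2 and 3 and 7.52, 5.79 and 17.8 CPM in MFP 1, 2 and 3. In BrM 2 and BrM 3 the microglial level was 12.2-fold and 10.6-fold that of macrophages, and the macrophages of MFP 3 stood at 8.08% of the mean microglial level. The values of BrM 2, BrM 3 and MFP 3 lay close together, and the lowest ones came from MFP 1 and MFP 2, with 4 and 1 UMIs. Macrophages, which outnumbered microglia, held 25.3% and 32.0% of the P2ry12 UMIs of named classes in BrM 2 and BrM 3, against 71.3% and 62.1% in microglia. Thinned to 2000 UMIs per cell, P2ry12 was seen in 32.6% and 29.0% of microglia and in 4.12%, 3.25% and 3.43% of macrophages of BrM 2, BrM 3 and MFP 3.

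Gpr34 was at 299.5 and 238 CPM in microglia. In macrophages it was at 9.85, 14.8 and 13.5 CPM in BrM 1 to 3 and at 7.52, 23.2 and 15.2 CPM in MFP 1 to 3, where the high value of MFP 2 is 4 UMIs. The sites overlapped, and the microglial level was 20.2-fold and 17.7-fold the macrophage level in BrM 2 and BrM 3. In BrM 2, BrM 3 and MFP 3, Gpr34 differed from the other 7 genes in where its UMIs outside microglia lay. T cells held 13.6%, 14.5% and 33.8% of its UMIs there, as described below. In the mostly lymphoid BrM 1, MFP 1 and MFP 2, T cells held 63.7%, 79.0% and 80.2% of Gpr34 UMIs. The trait was not particular to Gpr34 in those libraries, where T cells also held 50.6%, 62.3% and 80.6% of Cx3cr1 UMIs.

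Cx3cr1 was at 927 and 898 CPM in microglia and at 177, 330 and 287 CPM in the macrophages of BrM 1 to 3. The macrophages of MFP 1 to 3 held 338, 98.5 and 313 CPM. The microglial excess was thus only 2.81-fold in BrM 2 and 3.13-fold in BrM 3, and MFP 3 macrophages stood at 34.3% of the mean microglial level. More Cx3cr1 UMIs came from macrophages (58.0% in BrM 2 and 59.7% in BrM 3) than from microglia (37.6% and 34.3%). At 2000 UMIs per cell, Cx3cr1 was seen in 73.2% and 70.7% of microglia and in 41.2%, 37.3% and 37.4% of macrophages of BrM 2, BrM 3 and MFP 3.

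The surface protein Tmem119 showed the smallest gap of the 8 genes. It was at 257 and 245 CPM in microglia of BrM 2 and BrM 3. In macrophages of BrM 1, 2 and 3 it was at 55.8, 126 and 95.8 CPM, and in those of MFP 1, 2 and 3 at 103, 34.7 and 128 CPM. The folds were 2.04 in BrM 2 and 2.56 in BrM 3. The highest macrophage value was in MFP 3, a library with 0 microglia-like cells. There 3768 UMIs of Tmem119 were counted in macrophage-like cells, 98.8% of its Tmem119 UMIs in named classes. In the brain tumours, 66.8% of the Tmem119 UMIs lay in macrophages in each of BrM 2 and BrM 3, and 31.6% and 31.3% in microglia. At 2000 UMIs per cell, 36.9% and 35.2% of microglia had a UMI of Tmem119, against 18.5%, 14.2% and 19.9% of macrophages.

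Fcrls, a member of the Fc receptor-like family, was at 1060 and 854 CPM in microglia. Macrophages held 47.6, 144 and 78.2 CPM in BrM 1 to 3 and 28.2, 52.1 and 113 CPM in MFP 1 to 3. The folds were 7.37 and 10.9, and BrM 2 and BrM 3 differed from each other by more than BrM 3 and MFP 3 did. Macrophages held 36.5% and 32.7% of the Fcrls UMIs of BrM 2 and BrM 3. In MFP 3, macrophages held 80.6% and a smaller class of resident macrophages 17.8% of the 4126 Fcrls UMIs in named classes. A further 2203 Fcrls UMIs of MFP 3 lay in cells without a name.

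Of the secreted proteins, Sparc was at 1136 and 771 CPM in microglia of BrM 2 and BrM 3. In macrophages it was at 6.57, 5.90 and 2.95 CPM in BrM 1 to 3 and at 5.64, 29.0 and 1.73 CPM in MFP 1 to 3. The value of MFP 2 rests on 5 UMIs. The folds were 192 and 261 in BrM 2 and BrM 3, and of all genes Sparc had the highest ratio of microglia to macrophages when 20 CPM was added to both levels. Microglia held 91.8% and 96.2% of the Sparc UMIs of named classes in these libraries. Unlike Sall1, Sparc was seen in most microglia, in 92.5% and 87.6% at full depth and in 79.6% and 64.0% at 2000 UMIs per cell, against 1.07%, 0.79% and 0.30% of macrophages of BrM 2, BrM 3 and MFP 3. The few non-immune cells in the sorted material also held Sparc: in a cluster of epithelial, tumour-like cells its level was 313 CPM for BrM 2 and 68.5 CPM for MFP 3. In microglia, fibroblast markers summed to 0.536 and 0 CPM, with Col3a1 and Dcn at 0 in both libraries, and endothelial markers to 17.7 and 13.02 CPM, against 9.40 to 37.8 CPM in macrophages. Astrocyte and oligodendrocyte markers summed to 49.7 and 52.6 CPM in microglia of BrM 2 and BrM 3. In the same libraries they summed to 21.0 and 19.3 CPM in macrophages and to 41.8 and 51.8 CPM in T cells.

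Olfml3 was at 794 and 695 CPM in microglia and at 54.2, 155 and 144 CPM in macrophages of BrM 1 to 3. In MFP 1 to 3 the macrophages held 43.2, 52.1 and 90.0 CPM. The folds of microglia over macrophages were 5.13 in BrM 2 and 4.81 in BrM 3. The 2 brain libraries with many macrophages were above all 3 MFP libraries, whereas BrM 1 lay within the MFP range. Macrophages held 44.9% and 51.9% of the Olfml3 UMIs of named classes in BrM 2 and BrM 3, close to the 53.2% and 45.8% in microglia. The 2 secreted proteins thus differed, with Sparc in microglia almost alone and Olfml3 shared.

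The 11 microglia-like cells of BrM 1 gave 37481 UMIs in all and are too few for the comparisons. In them P2ry12 was at 80.0 CPM, Fcrls at 560, Sparc at 320, Cx3cr1 at 133, Gpr34 at 240, Olfml3 at 267 and Tmem119 at 26.7 CPM, and no UMI of Sall1 was counted.

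**Figure D2:**
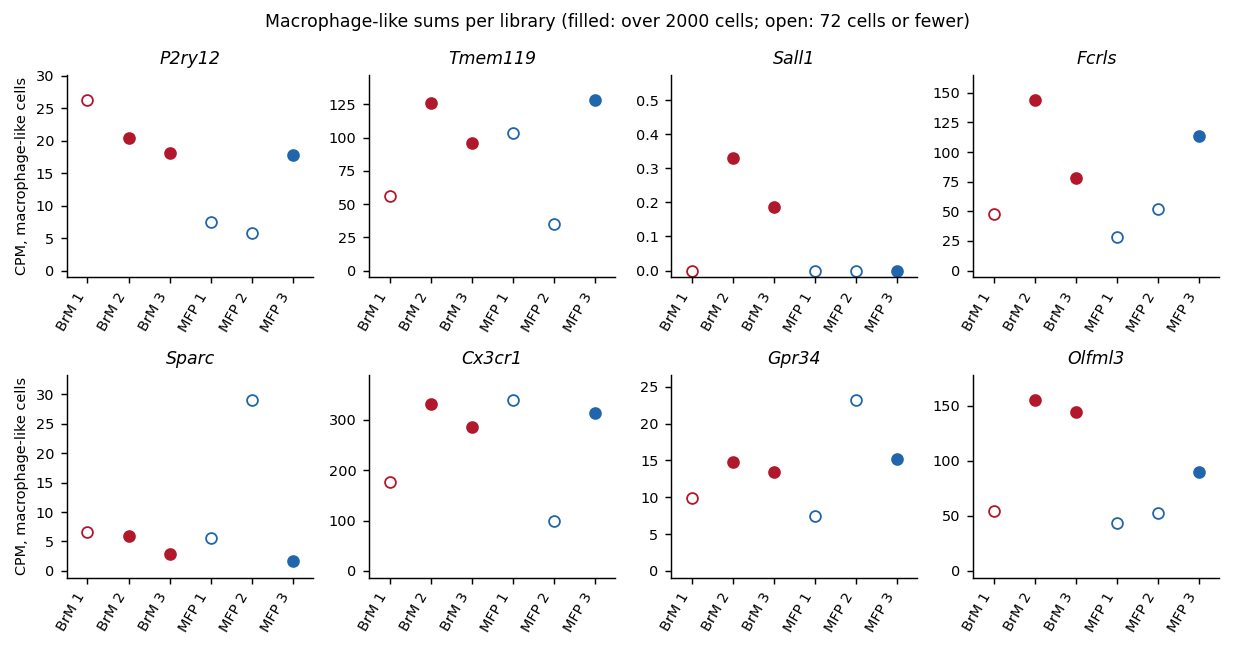
Level of each gene (CPM of summed UMIs) in the macrophage-like cells of each library, BrM in red and MFP in blue; filled circles are libraries with over 2000 macrophage-like cells and open circles those with 72 or fewer. Tmem119 is at 128 CPM in MFP 3 and 126 CPM in BrM 2, while Olfml3 is at 90.0 CPM in MFP 3 and 155 and 144 CPM in BrM 2 and BrM 3.

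The levels of 6 of the genes in lymphoid cells were taken as those that free RNA can give. There P2ry12 was at 0.06 to 1.17 CPM over the 6 libraries, Tmem119 at 0.04 to 1.95, Fcrls at 0.25 to 4.06, Sparc at 0 to 2.59, Olfml3 at 1.36 to 5.48 and Sall1 at 0 to 0.20 CPM. The macrophage values of Tmem119, Fcrls and Olfml3 given above were all beyond these ranges, in all 6 libraries. Those of P2ry12 were too, but in MFP 1 and MFP 2 they were 4 and 1 UMIs. As 1 UMI of MFP 2 is worth 5.79 CPM, any P2ry12 count there would exceed the range and decides nothing. Sparc in macrophages of BrM 2 and BrM 3 (5.90 and 2.95 CPM) stood against 2.59 and 2.11 CPM in lymphoid cells of the same libraries, and Sall1 (0.330 and 0.187 CPM) against 0.203 and 0.108 CPM. In microglia of BrM 2 and BrM 3 there were 0.0616 and 0.0682 UMIs of Sall1 per UMI of Sparc, and in macrophages of the same libraries 0.0559 and 0.0635, the latter from 8 and 4 UMIs of Sall1 and 143 and 63 of Sparc. The part of free RNA in the macrophage counts was not tested further.

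Outside microglia and macrophages, each receptor had a distribution of its own. Cx3cr1 was at 306 CPM in the patrolling monocytes of BrM 3, a class in which this receptor is used as a marker. In classical monocytes it was at 118, 100 and 158 CPM in BrM 1 to 3 and at 192, 178 and 86.9 CPM in MFP 1 to 3, so that the sites overlapped. Type 2 conventional dendritic cells (cDC2) ranged from 21.0 to 101.6 CPM over the 5 libraries with at least 20 such cells. T cells were at 12.9, 21.3 and 14.9 CPM in BrM and at 28.3, 23.5 and 21.6 CPM in MFP, and NK cells at 6.23 to 11.4 CPM. T and NK clusters are numbered within all cells and the other clusters below within myeloid cells. Within the T cells, Cx3cr1 was highest in cluster 17, led by Cd8a, Gzma and Xcl1 (35.0 CPM over the BrM libraries, 91.4 over the MFP ones), and in cluster 5, led by Cd3g, Penk and Tnfrsf4 (33.8 and 71.003 CPM).

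Gpr34 in T cells was at 6.15, 20.6 and 14.9 CPM in BrM 1 to 3 and at 20.4, 14.2 and 25.5 CPM in MFP 1 to 3, and NK cells were at 4.07 to 27.1 CPM. In MFP 3, which had no microglia-like cell, the Gpr34 level of T cells (25.5 CPM) was above that of macrophages (15.2 CPM). The highest lymphoid levels were in T cell cluster 14 (45.0 CPM over BrM, 55.7 over MFP) and NK cell cluster 26 (44.8 and 57.9 CPM). Cluster 14 was led by Gzmb, Gzma and Gzmc, and cluster 26 by Gzmc, Xcl1 and Gzma. Cytotoxic genes also led NK cell clusters with little Gpr34. Cluster 7, led by Gzma, Nkg7 and Gzmb, was at 0.677 CPM over BrM and 1.08 over MFP. NK cell cluster 0, led by Gzma and Nkg7, was at 2.73 and 3.21 CPM. Classical monocytes were at 0 to 1.43 CPM for Gpr34.

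P2ry12 was at 21.1 and 18.3 CPM in neutrophils of BrM 2 and BrM 3 and at 11.2 CPM in those of MFP 3. Plasmacytoid dendritic cells held 9.62, 20.1 and 22.7 CPM of P2ry12 in the same order. These are small counts, 7 to 40 UMIs per library and class, and a UMI of P2ry12 was seen in 3.37% of the 297 neutrophils of BrM 2 (exact interval 1.63 to 6.10%) at a median depth of 1616 UMIs, against 0.746% of lymphoid cells of that library at a median of 5216 UMIs. In T and NK cells the gene was at 1.23 CPM or less.

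MFP 3 also held 264 resident-macrophage-like cells, named from Mrc1, Folr2, Lyve1 and related genes, and these carried another selection of the 8 genes. P2ry12 was at 50.1 CPM (a UMI in 40.5% of cells, interval 34.6 to 46.7%) and Fcrls at 250 CPM (249.8 before rounding; 60.2% of cells, 54.0 to 66.2%), both above the tumour macrophages of the same library (17.8 and 113 CPM). Gpr34 was at 29.0 CPM against 15.2. In the opposite direction, Tmem119 was at 2.39 CPM against 128, Olfml3 at 5.45 against 90.0 and Cx3cr1 at 42.9 against 313 CPM. The macrophage levels here are those of the whole class. Macrophage cluster 10 of MFP 3 held Fcrls at 274 CPM, above the resident class. Its Gpr34 and P2ry12 were at 26.0 and 35.1 CPM, below that class. Both resident clusters had P2ry12 (48.0 and 56.0 CPM in clusters 16 and 21), and Fcrls was higher in cluster 21 (383 CPM) than in cluster 16 (201 CPM). Apart from 1 cell of MFP 2, this class was found in MFP 3, so its values have no replicate.

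For the question whether the site of the tumour moves these genes in cells of the same class, BrM was tested against MFP on the sums per library with edgeR's quasi-likelihood test, adjusted by the Benjamini-Hochberg method over all genes tested. In macrophages, 7 of the 8 members passed the filter on low counts and 0 were called at an adjusted p under 0.05. Among all 11210 genes tested, 32 were called (0.285%), 17 higher and 15 lower in BrM (0.134%). Tmem119 differed by a log2 fold change of 0.01 (SE 0.32, adjusted p = 0.996), Cx3cr1 by 0.11 (SE 0.33, adjusted p = 0.958), Gpr34 by 0.04 (SE 0.22, adjusted p = 0.981) and Fcrls by 0.41 (SE 0.42, adjusted p = 0.848). P2ry12 was at 0.39 (SE 0.21, adjusted p = 0.659), and at 0.67 without BrM 3 and 1.46 without MFP 3. Sparc was at 1.099 (SE 0.61, adjusted p = 0.668) in edgeR but at -0.71 with DESeq2, and its mean level was lower in BrM (5.14 ± 1.93 CPM, SD, n = 3) than in MFP (12.1 ± 14.7 CPM, SD, n = 3), where the 5 UMIs of MFP 2 weigh most. Sall1 was not tested. The count of called genes rested on single libraries: it was 0 without BrM 2, without BrM 3 or without MFP 3, 4 without MFP 2, 74 without MFP 1 and 162 without BrM 1.

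Olfml3 had the smallest adjusted p of the 7 in edgeR, 0.439, with a log2 fold change of 0.93 (SE 0.35). Without BrM 1 it was called, at 1.18 (adjusted p = 0.0312). A term that split the libraries at 55000000 UMIs set BrM 2, BrM 3 and MFP 3 apart from the mostly lymphoid BrM 1, MFP 1 and MFP 2. Such a term cannot tell UMI total from cell makeup. With this term in edgeR, Olfml3 was at 0.73 (adjusted p = 0.0550). In BrM 2, BrM 3 and MFP 3 alone it was also called, at 0.87 (adjusted p = 0.00831), but there MFP is a single library, assumed to vary like the 2 BrM libraries, and 1278 genes were called. In the other 10 alternative fits the adjusted p was between 0.125 and 1, the latter with DESeq2 and without BrM 3. It was positive in each of the 13 alternative fits, from 0.63 to 1.39. The macrophage class was made up of different clusters at the 2 sites: cluster 0, led by Ms4a7, Apoe and Spp1, was 19.6% and 20.3% of macrophages in BrM 2 and BrM 3 but 1.07% in MFP 3, and clusters 1, 3 and 14 were 28.3%, 18.5% and 10.4% in MFP 3 but 0.531 to 5.55% in BrM 2 and BrM 3. In BrM 1, MFP 1 and MFP 2, cluster 9 was the largest, with 36.1%, 32.4% and 75.0%. In each of the 11 clusters with at least 20 cells in BrM 2, BrM 3 and MFP 3, Olfml3 was lower in MFP 3 than in both brain libraries. In cluster 10, led by Ms4a7, C1qa and C1qc, it was at 241 and 258 CPM in BrM 2 and BrM 3 and at 163 CPM in MFP 3, and in cluster 4 at 72.5, 78.0 and 25.5 CPM. The clusters share these 3 libraries and are no replicates, so the count is a description, and the part of the cluster makeup in the difference was not tested. For the 7 other genes MFP 3 was below both brain libraries in 2 clusters for Tmem119, 4 for Cx3cr1, 3 for P2ry12, 3 for Fcrls, 6 for Sparc, 7 for Gpr34 and 1 for Sall1.

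**Figure D3:**
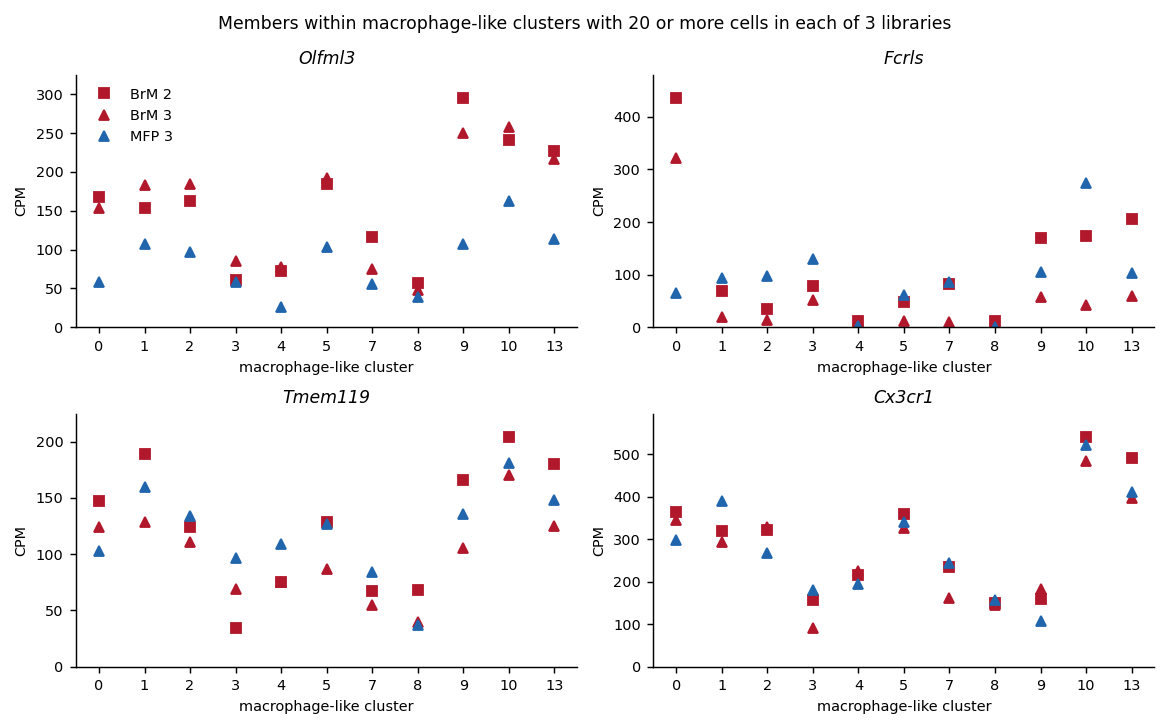
Level of Olfml3, Fcrls, Tmem119 and Cx3cr1 (CPM of summed UMIs) within the 11 macrophage-like clusters with at least 20 cells in each of BrM 2 and BrM 3 (red) and MFP 3 (blue). For Olfml3 the blue point is below both red points in all 11 clusters, and for Fcrls the red points of cluster 0 (437 and 323 CPM) stand above those of the other clusters.

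Levels also differed between macrophage clusters of a library, described here over the same 11 clusters. Fcrls had a wide range: in BrM 2 and BrM 3 it was at 437 and 323 CPM in cluster 0, whereas cluster 8, led by Cxcl9 and Ly6i, was at 11.5 and 7.22 CPM. In the 22 cells of cluster 0 from MFP 3, Fcrls was at 65.9 CPM, and in that library it was highest in cluster 10 (274 CPM). Among the 11, Cx3cr1 was highest in cluster 10 in all 3 libraries, at 541, 483 and 520 CPM in BrM 2, BrM 3 and MFP 3. Tmem119 was also highest there among the 11, at 204, 171 and 181 CPM. Gpr34 was highest of the 11 in cluster 10 as well in each of the 3 libraries (41.4, 36.1 and 26.0 CPM) and lowest in cluster 8 (3.82, 2.58 and 3.25 CPM). Of the 2 macrophage clusters with fewer than 20 cells in at least 1 of these libraries, cluster 14 was above cluster 10 for Cx3cr1 in BrM 2 and BrM 3 (590 and 564 CPM in 11 and 14 cells) and cluster 18 in MFP 3 (526 CPM in 16 cells). Cluster 14 was also above cluster 0 for Fcrls in BrM 2 and BrM 3 (462 and 454 CPM), and above cluster 10 for Gpr34 in BrM 3 (44.3 CPM). Cluster 18 was above cluster 10 for Tmem119 in BrM 2 (208 CPM). For Gpr34 it was below cluster 8 in BrM 3 and MFP 3 (2.11 and 0 CPM). No macrophage cluster held Sall1 above 1.17 CPM in these libraries, or Sparc above 16.2 CPM among the 11.

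Other classes gave no called member with all libraries either. In monocytes, 1 member was tested, Cx3cr1, at a log2 fold change of -0.06 (SE 0.28, adjusted p = 0.972 in edgeR), where 52 of 5304 genes were called (0.98%), 19 of them lower in BrM (0.358%). That count was 4 without BrM 3, 15 without MFP 3, 29 without BrM 2 and 32 without MFP 2. In T cells, 6 members were tested and 0 called, as were 0 of 12326 genes (0%). There 1364 genes had an unadjusted p under 0.05, DESeq2 called 75, and edgeR called 5 without BrM 1. Cx3cr1 in T cells was at -0.54 (SE 0.21, adjusted p = 0.432 in edgeR) and Gpr34 at -0.47 (SE 0.41, adjusted p = 0.653). Both were lower in BrM in each of the 13 alternative fits, from -0.76 to -0.15 for Cx3cr1 and from -0.92 to -0.10 for Gpr34. Sparc in T cells, part of the UMIs used above as the level of free RNA, had an adjusted p of 0.544 in edgeR. It passed (adjusted p = 0.0255) in the fit of BrM 2, BrM 3 and MFP 3, where the single MFP library had 0 UMIs, so that call is no comparison of levels. NK cells had 6 members tested and 0 called, with 0 of 10725 genes (0%; 1007 at an unadjusted p under 0.05, 45 by DESeq2 and 562 without BrM 1). Fcrls in NK cells was at 0.718, 5.75 and 6.09 CPM in BrM 1 to 3 and at 0.477, 0.454 and 2.22 CPM in MFP 1 to 3, with a log2 fold change of 2.34 (adjusted p = 0.512 in edgeR), and it was called without BrM 1, at 3.12 (adjusted p = 0.0470). These NK levels rest on 6 to 15 UMIs per library and are part of the lymphoid UMIs used above as the level of free RNA. In cDC2 cells 3 members were tested and 0 called, with 0 of 9133 genes (0%; 627 at an unadjusted p under 0.05, 19 by DESeq2 and 22 without BrM 1). In gamma-delta T cells no member passed the filter, and 24 of 6733 genes were called (0.356%; 287 without BrM 1 and 46 without BrM 2).

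Counted per cell, the 8 genes occurred together mainly in microglia. A UMI of 3 or more of them was found in 96.3% and 94.2% of microglia in BrM 2 and BrM 3. Macrophages met the same rule in 20.8%, 55.4% and 44.6% of cells in BrM 1 to 3 and in 14.1%, 6.25% and 49.98% in MFP 1 to 3, so that 3 genes did not separate the classes at full depth. At 2000 UMIs per cell the shares were 88.4% and 79.6% in microglia and 8.69%, 5.02% and 6.76% in the macrophages of BrM 2, BrM 3 and MFP 3. At full depth, 6 or more genes were found in 77.1% and 69.8% of microglia and in 2.36%, 0.682% and 1.85% of macrophages, and at 2000 UMIs in 16.7% and 14.2% of microglia and in 0% of macrophages. At full depth, all 8 genes were found in 143 and 65 microglia and in 1 macrophage-like cell, of BrM 2. The median microglia-like cell had 7 of the genes, and the median macrophage 3 in BrM 2 and 2 in BrM 3 and MFP 3. T cells reached 3 or more genes in at most 0.288% of cells and NK cells in at most 0.873%.

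**Figure D4:**
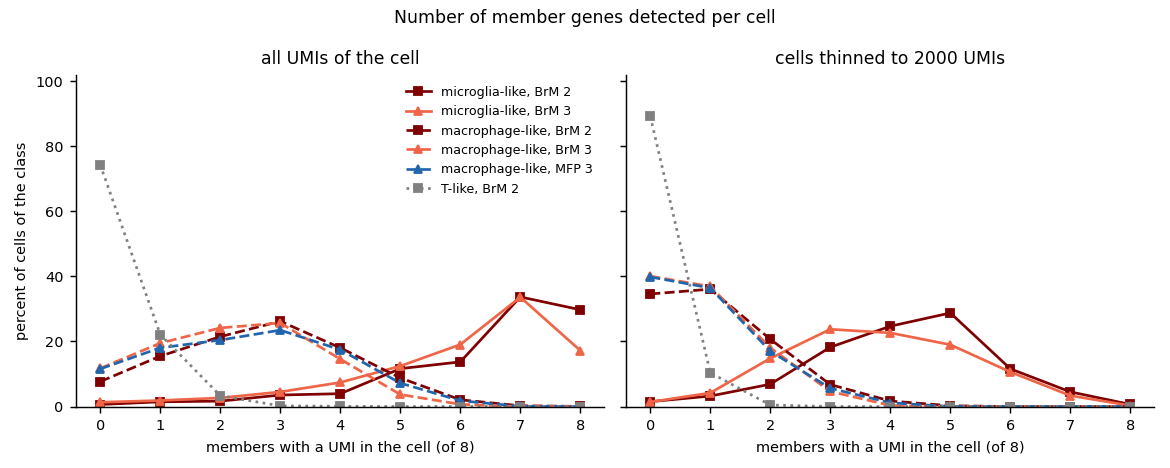
Share of cells (percent of the class) by the number of the 8 genes with a UMI in the cell, at full depth on the left and with each cell thinned to 2000 UMIs on the right; solid lines are microglia, dashed lines macrophages and the dotted line T cells. Microglia peak at 7 genes at full depth (33.7% of cells in BrM 2), macrophages of both sites at 3 or fewer.

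Levels differed between the clusters of microglia. Of the 4 clusters, cluster 6 was the largest (535 cells over all libraries), cluster 22 held 49 and 14 cells in BrM 2 and BrM 3, cluster 24 was a small group of 14 and 12 cells, and cluster 15 held 247 cells of lower depth (median 4082 UMIs). P2ry12 was at 261 and 203 CPM in cluster 6, at 311 and 286 in cluster 22, and at 119 and 112 in cluster 15. Cx3cr1 followed the same order, at 951 and 967, 1269 and 1788, and 360 and 359 CPM, and so did Sall1, at 66.7 and 56.4, 143 and 75.6, and 32.7 and 29.9 CPM. Sparc was also lowest in cluster 15 (685 and 501 CPM) and highest in cluster 22 (1620 and 1102 CPM). Fcrls was at 1022 and 854 CPM in cluster 6 and at 1200 and 817 CPM in cluster 15, so that cluster 15 was above cluster 6 in BrM 2 and the lowest of the 4 clusters in BrM 3. Cluster 24 was at 211 and 199 CPM for P2ry12, at 987 and 809 CPM for Cx3cr1, at 40.5 and 48.6 CPM for Sall1 and at 1163 and 920 CPM for Sparc. In both libraries cluster 22 was highest and cluster 15 lowest for P2ry12, Cx3cr1, Sall1 and Sparc, and the lower depth of cluster 15 went with it; its part in the result was not tested.

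**Figure D5:**
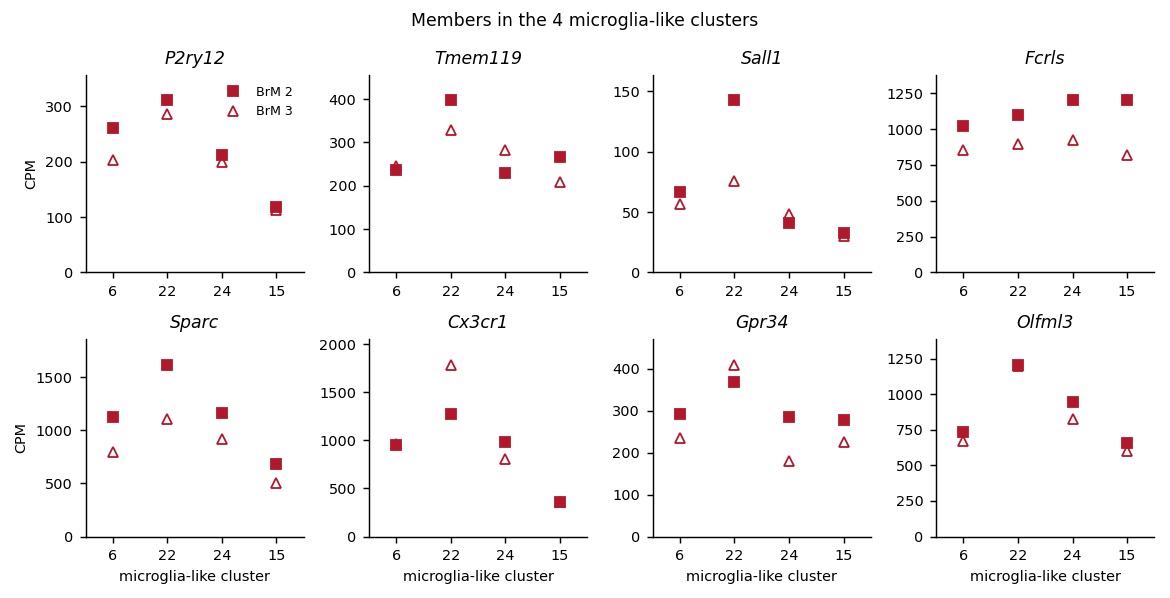
Level of each gene (CPM of summed UMIs) in the 4 microglia-like clusters of BrM 2 (squares) and BrM 3 (triangles); clusters 22 and 24 have 12 to 49 cells per library. P2ry12, Cx3cr1, Sall1 and Sparc are lowest in cluster 15 (P2ry12 at 119 and 112 CPM), and Fcrls is at 1200 and 817 CPM there.

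The wider set of homeostatic microglia genes was read in the same way, from a list of 30 genes that holds none of the 8. Of these, 29 were higher in microglia than in macrophages in both BrM 2 and BrM 3, against 2028 of all 5635 genes at 20 CPM or more in one of the sums (36.0%). The exception was Entpd1, the ectonucleotidase CD39, at 82.7 CPM in microglia of each library against 105 and 91.3 CPM in macrophages. The list includes the genes used to name the class, so its count is a description. In macrophages 24 of the 30 were tested between the sites and 0 were called, with a median log2 fold change of 0.05 against -0.01 over all genes. For the 7 tested members the median was 0.39.

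Genes of the disease-associated state, into which microglia shift around lesions, were also compared between microglia and macrophages. No microglia of a tumour-free brain were measured, so these levels cannot show such a shift. Of 12 such genes in the matrices, 9 were higher in microglia than in macrophages in both libraries, against 36.0% of all genes at 20 CPM or more. Cst7, a cystatin, was at 798 and 962 CPM against 11.02 and 19.6, Spp1, or osteopontin, at 2620 and 2759 against 670 and 496, and the lipid carrier Apoe at 23322 and 20381 against 18962 and 15511 CPM. Itgax and Axl were lower in microglia. Among 12 genes of transcription factors and TGF-beta signalling, 9 were higher in microglia in both libraries, such as Mef2c at 288 and 271 against 74.1 and 56.3 CPM. These 9 include Sall1, a member, and Sall3, a marker used to name the class, so the count is a description. Spi1, the Ets factor of all macrophages, was at 342 and 317 CPM against 348 and 337 CPM. Of the 12 disease-associated genes and the 10 tested genes of the second list, 0 were called between the sites in macrophages.

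Of 18 relatives of the 8 genes, from the same families or loci, 4 were higher and 7 lower in microglia than in macrophages in both libraries, where 2028 were higher and 2347 lower of all 5635 genes at 20 CPM or more. Smoc2, Olfml1 and Sall4 had no UMI in either class of these libraries. P2ry13, a second ADP receptor next to P2ry12, was at 92.0 and 90.9 CPM in microglia against 11.9 and 8.66 in macrophages. Gpr171, of the same receptor group, was at 2.68 and 0.51 CPM against 28.3 and 29.9. The chemokine receptors of recruited cells lay on the macrophage side, with Ccr2 at 5.004 and 5.11 against 144 and 158 CPM and Ccr1 at 21.4 and 17.1 against 190 and 162 CPM.

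The genes most like each member were taken over 59 sums of 1 library and 1 class, by Pearson's r of log2(CPM + 1), among 12692 genes. For P2ry12 they were P2ry13 (r = 0.877) and Tmem86a (0.868), for Sall1 the fructose transporter Slc2a5 (0.960) and Mlxipl (0.916), and for Sparc Nav3 (0.881) and Tspan7 (0.878). Tmem119 was closest to Prkar1b (0.883) and Ntpcr (0.855), Fcrls to Prune2 (0.890) and C1qc (0.862), Olfml3 to Speg (0.872) and Ch25h (0.855), and Cx3cr1 to Ms4a6d (0.855) and Lilrb4a (0.833). Gpr34 had the weakest likeness, with Ctla2b (0.729) and Cst7 (0.714). Among the members themselves, r ranged from 0.28 for P2ry12 and Gpr34 to 0.86 for Fcrls and Olfml3. The sums share libraries and are not independent, so these values are descriptions.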

How the data were processed

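CD45+ cells of 3 BrM and 3 MFP libraries were measured with 10x Genomics 3' version 3 chemistry. The deposited matrices give, for each gene and barcode, a raw count of UMIs, which the authors made with Cell Ranger 4.0 on mm10, per the submitters' processing notes. Groups and replicate numbers came from the labels. Barcodes under 500 UMIs or 200 genes or over 10% mitochondrial UMIs were dropped (2627 in all). Scrublet scores were computed per library, and the highest 7% (3283 cells) were removed as doublets, because its automatic threshold marked almost none in 4 libraries. Clustering (scanpy 1.11.5, leidenalg 0.10.2) left out the 8 members. Clusters were named from marker lists without members, and the thresholds of the names were set after the clusters were seen. UMIs were summed per library and class, and classes with at least 20 cells per library were tested with edgeR 4.0.16 in R 4.3.3 (TMM, filterByExpr, Benjamini-Hochberg, threshold 0.05), with DESeq2 1.42.0 as an alternative. Genes named were the 8 members, the 2 genes most correlated with each, and the context lists. The members and lists were chosen with earlier results of these data known. Intervals and limits for 0 cover counting error only.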

Additional observations from a re-analysis of the deposited data

Results flagged for a closer look

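Members also had high levels in 3 clusters, numbered within the myeloid cells, that were left without a name and entered no comparison. Each value below was above the highest level of that gene in the macrophages of any library and rested on at least 10 UMIs. Cluster 23 (22 cells in each of BrM 2 and BrM 3) was led by Cxcl13, C1qc and C1qa. It passed the thresholds on the microglia naming markers, with 6 detected where 5 were needed. The cluster was left without a name because it also scored for lymphoid markers. In BrM 2 it held P2ry12 at 104 CPM, Sall1 at 33.9, Fcrls at 446, Sparc at 551, Cx3cr1 at 477, Gpr34 at 98.8 and Olfml3 at 339 CPM. In BrM 3 the cluster held P2ry12 at 139 CPM, Tmem119 at 152, Sall1 at 35.6, Fcrls at 473, Sparc at 641, Cx3cr1 at 538, Gpr34 at 152 and Olfml3 at 408 CPM. Cluster 19 was found in MFP 3 alone (137 cells), was led by Retnla, Fn1 and Lyz1, and held Fcrls at 773 CPM, with a UMI in 91.2% of its cells and P2ry12 in 5.84%. Cluster 17, of low depth and led by haemoglobin genes, held Cx3cr1 at 469 CPM in MFP 3. These values have no replicate comparison.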

How the results depend on the processing

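The count of genes called in macrophages (32) was 4 with DESeq2, 2 without the filter on low counts, 330 with a term for the UMI total, 1278 with the libraries of higher total only, 4 with a minimum of 50 cells and 177 without doublet removal. In the same order of settings, where they moved it, the count in monocytes (52) was 173 without the filter, 90 with the term, and 302 with the higher-total libraries and with 50 cells. In gamma-delta T cells (24 of 6733 genes, 0.356%) it was 111 without the filter and 65 with the term. In T cells (0) it was 75 with DESeq2, 110 with the term and 583 with the higher-total libraries. In NK cells (0) these were 45, 11 and 348, and 6 without the filter. In cDC2 cells (0) they were 19, 74 and 356, and 174 without the filter. In B cells (0 of 5052 genes, 0%, 362 at an unadjusted p under 0.05 and 0 by DESeq2) the count was 58 without the filter, 4 with the term, 116 with the higher-total libraries and 1 without doublet removal. Leaving out 1 library gave 0 to 162 calls in macrophages, 4 to 42 in monocytes, 18 to 287 in gamma-delta T, 0 to 5 in T, 0 to 562 in NK, 0 to 22 in cDC2 and 0 to 320 in B cells. The 287 and 320 came without BrM 1, and gamma-delta T cells gave 46 without BrM 2. The cause of these moves was not tested.

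The deviations of same-numbered libraries in macrophages correlated at -0.00545, -0.136 and 0.192. The labels do not say what a number marks. With 3 libraries per site, these values cannot tell whether same-numbered libraries share an animal, a day or a batch. With the replicate block, calls were 58 in macrophages, 24 in monocytes, 5 in cDC2 and 14 in B cells. In T cells the same-numbered pairs correlated at 0.357, -0.51 and 0.479, and not every library correlated best with its own number.

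None of the log2 differences that changed sign was called in any of the fits. Tmem119 in macrophages was at -0.0011 without the filter, -0.0312 with the replicate block, -0.192 with the term, -0.0763 with the higher-total libraries, -0.160 with 50 cells and -0.0119 without doublet removal, and between -0.328 and 0.266 without single libraries. Cx3cr1 in macrophages was at -0.109 with the term, -0.152 with 50 cells and -0.0397 without doublet removal (-0.152 to 0.319 without single libraries). Gpr34 was at -0.0468 with DESeq2 and -0.0966 with the block (-0.0244 to 0.0751 without single libraries), Sparc at -0.708 with DESeq2, and Fcrls between -0.159 and 1.39 without single libraries. Cx3cr1 in monocytes was at 0.180 with the term, 0.705 with the higher-total libraries and with 50 cells, and 0.0615 without doublet removal (-0.506 to 0.245 without single libraries). P2ry12 and Olfml3 in macrophages stayed positive in all 13 alternatives.

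The mean microglial level of Tmem119 was 238 CPM without doublet removal (251 as reported), and that of Cx3cr1 864 CPM after thinning (912). The mean share of UMIs in microglia over BrM 2 and BrM 3 was 31.4% for Tmem119, against 30.8% when microglia were gated cell by cell on at least 4 markers that are not members (a number set after counts were seen), 33.2% after thinning and 32.3% without doublet removal. For Sall1 (96.5%) these were 86.6%, 96.8% and 93.4%. The gate gave 57.3% for Fcrls (63.8%), 87.2% for Sparc (94.0%) and 58.4% for Gpr34 (63.7%), and thinning 33.2% for Cx3cr1 (36.0%) and 57.2% for Gpr34. Microglia with 3 or more members were 95.2%, against 98.7% with the gate and 84.0% after thinning. Keeping the members among the clustering genes moved none of these means and shares by more than the spread between the libraries.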
